A study of Mus musculus with 4 samples.

Results

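The deposited H3K27ac lists of mouse embryonic stem (ES) cells hold 11651 regions, and 1063 of them are domains of 5 kb or more. These stitched domains were chosen by their width alone, as the end minus the start of each listed region. They comprise 564 of the 6126 regions enriched in cells of the diabetes-prone non-obese diabetic (NOD) strain and 499 of the 5525 regions enriched in cells of the C57BL/6 (B6) strain. Because width chose the members and the score was taken from the same H3K27ac libraries, widths and scores are given as a description, with no test.

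The study compared ES cells isolated from NOD and C57BL/6 embryos, both grown in 2i medium, which holds inhibitors of MEK and GSK3. Chromatin immunoprecipitation followed by sequencing (ChIP-Seq) was carried out once for each strain and each of the marks H3K4me3 and H3K27ac, so that 4 libraries were available with no replicates. NOD mice are described as autoimmune-prone, and C57BL/6 served as the strain that does not develop diabetes. The NOD lines chosen for further work in the study were male, but which ES cell line of each strain was used for ChIP-Seq is not given in the sources used here. The authors called regions of one strain against the other strain's library as background, and each list is therefore itself a comparison of 2 libraries. Domains said to lack H3K4me3 held no region of their own strain's list, as H3K4me3 alike in both strains was not examined. The H3K4me3 libraries held 22750449 tags in NOD and 14791364 tags in B6, while for H3K27ac the depth is unknown. All intervals are 95% exact intervals that cover counting error only, and say nothing of the spread between cultures.

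H3K27ac, the acetylation of lysine 27 of histone H3, marks active enhancers and promoters. Where many acetylated elements lie close together, peak callers join them into one stitched domain, and those with the most signal are called super enhancers. In ES cells such domains are known near genes of the pluripotency network, where OCT4, SOX2, ESRRB and KLF factors bind. H3K4me3, the trimethylation of lysine 4, marks active promoters, and inside a wide acetylated domain it is typical of a start of transcription.

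To show what lay inside the domains, the DNA at the strongest H3K4me3 region is given for the 3 highest-scoring domains that held one and the 3 domains with the most H3K4me3 tags in each list. The 10 windows are each 300 bases long around the centre of the H3K4me3 region, read from the plus strand of mm10. As mm10 is the B6 genome, the NOD sequence may differ at these places. Domains are named after the gene whose start the authors list as nearest. Capitals mark matches, on either strand, to 4 motifs of pluripotency factors: ATGCAAAT for OCT4, AACAATG for SOX2, TCAAGGTCA for ESRRB and GGGTGTG for KLF factors. The first 4 windows are from NOD-enriched domains and the others from B6-enriched domains.
Gm14296, chr2:177075068-177075367: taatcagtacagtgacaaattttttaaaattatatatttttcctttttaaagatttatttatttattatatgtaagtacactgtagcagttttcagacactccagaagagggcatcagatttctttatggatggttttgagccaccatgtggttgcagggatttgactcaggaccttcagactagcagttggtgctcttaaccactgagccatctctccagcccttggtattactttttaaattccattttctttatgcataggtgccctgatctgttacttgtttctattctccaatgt
Smarca5-ps, higher-scoring domain, chr4:145434122-145434421: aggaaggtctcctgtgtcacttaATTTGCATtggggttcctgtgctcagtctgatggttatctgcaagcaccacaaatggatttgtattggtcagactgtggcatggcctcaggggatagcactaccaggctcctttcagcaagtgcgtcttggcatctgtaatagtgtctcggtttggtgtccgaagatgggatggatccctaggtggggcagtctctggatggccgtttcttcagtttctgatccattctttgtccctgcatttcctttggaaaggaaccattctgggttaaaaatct
Crxos, chr7:15902254-15902553: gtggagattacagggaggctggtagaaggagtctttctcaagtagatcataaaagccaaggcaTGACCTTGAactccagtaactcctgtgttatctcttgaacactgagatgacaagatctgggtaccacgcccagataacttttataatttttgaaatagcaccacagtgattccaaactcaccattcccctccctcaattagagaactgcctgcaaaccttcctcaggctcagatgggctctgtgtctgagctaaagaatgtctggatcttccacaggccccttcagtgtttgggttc
Smarca5-ps, neighbouring domain, chr4:145411313-145411612: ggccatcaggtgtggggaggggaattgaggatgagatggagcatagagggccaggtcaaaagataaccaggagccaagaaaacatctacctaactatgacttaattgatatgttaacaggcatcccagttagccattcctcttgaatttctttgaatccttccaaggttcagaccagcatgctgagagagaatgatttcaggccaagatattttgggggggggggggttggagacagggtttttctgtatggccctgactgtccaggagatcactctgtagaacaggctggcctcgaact
Mfap3, chr11:57558682-57558981: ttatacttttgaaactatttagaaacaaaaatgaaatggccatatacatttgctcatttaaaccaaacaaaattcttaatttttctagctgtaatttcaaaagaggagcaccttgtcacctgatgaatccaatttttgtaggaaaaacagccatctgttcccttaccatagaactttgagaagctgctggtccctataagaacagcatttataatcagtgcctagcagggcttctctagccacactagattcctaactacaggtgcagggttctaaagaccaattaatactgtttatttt
Scaf4, chr16:90285326-90285625: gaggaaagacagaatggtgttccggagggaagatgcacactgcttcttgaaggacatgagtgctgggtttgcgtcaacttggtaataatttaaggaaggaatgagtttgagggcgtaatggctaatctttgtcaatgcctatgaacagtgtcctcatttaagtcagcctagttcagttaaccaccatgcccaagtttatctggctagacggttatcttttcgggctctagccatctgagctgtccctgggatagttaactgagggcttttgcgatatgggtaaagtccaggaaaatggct
1700057H15Rik, chr4:124356900-124357199: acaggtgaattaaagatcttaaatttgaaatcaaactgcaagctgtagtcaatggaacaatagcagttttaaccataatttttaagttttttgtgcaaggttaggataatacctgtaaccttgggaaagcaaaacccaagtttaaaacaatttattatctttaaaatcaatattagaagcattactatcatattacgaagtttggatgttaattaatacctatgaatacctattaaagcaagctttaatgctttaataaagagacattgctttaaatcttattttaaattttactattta
Klhdc4, chr8:121842117-121842416: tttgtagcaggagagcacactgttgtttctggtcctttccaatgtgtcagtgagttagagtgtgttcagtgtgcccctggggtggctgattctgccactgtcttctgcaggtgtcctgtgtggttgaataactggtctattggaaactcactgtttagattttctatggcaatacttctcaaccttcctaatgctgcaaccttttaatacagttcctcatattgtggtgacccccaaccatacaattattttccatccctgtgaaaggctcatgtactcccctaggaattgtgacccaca
Sult6b1, chr17:78895018-78895317: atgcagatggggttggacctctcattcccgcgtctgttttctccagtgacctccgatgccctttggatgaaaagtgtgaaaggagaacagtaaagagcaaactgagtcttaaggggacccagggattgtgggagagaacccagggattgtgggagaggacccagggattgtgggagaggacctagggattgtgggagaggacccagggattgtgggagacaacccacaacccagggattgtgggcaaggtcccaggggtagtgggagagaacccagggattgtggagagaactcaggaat
5730507C01Rik, chr12:18514967-18515266: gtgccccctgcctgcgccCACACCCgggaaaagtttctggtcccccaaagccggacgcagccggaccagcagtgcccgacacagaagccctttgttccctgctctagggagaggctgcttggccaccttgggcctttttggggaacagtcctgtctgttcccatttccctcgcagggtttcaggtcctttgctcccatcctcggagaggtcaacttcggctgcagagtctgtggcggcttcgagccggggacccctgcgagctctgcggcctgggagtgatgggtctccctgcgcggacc

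The windows had little in common. No pair of the 45 shared a 12-base word on either strand. Their GC content ran from 26.0% in 1700057H15Rik to 64.3% in 5730507C01Rik, and the number of CpG dinucleotides from 0 to 16. The Mfap3 window was soft-masked as repeat over 88.7% of its bases and the 1700057H15Rik window over its whole length, whereas none of the Scaf4 window was masked. The Klhdc4 window lay just past the end of the domain, since its H3K4me3 region crossed the border. The OCT4 motif was found in the Smarca5-ps window of the higher-scoring domain, the ESRRB motif in the Crxos window and the KLF motif in the 5730507C01Rik window. Over all windows of 300 bases in mm10, 2.61% held the OCT4 motif, 5.97% the SOX2 motif, 0.629% the ESRRB motif and 4.74% the KLF motif. A match is a description of the letters and not a bound site.

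The width limit fell in a sparse part of both lists. Most regions were narrow, with 4839 NOD-enriched and 4555 B6-enriched regions under 1 kb. Only 24 NOD-enriched and 19 B6-enriched regions measured 4 to 5 kb, and 31 and 41 measured 5 to 6 kb. A separate group of wide regions lay between 6 and 12.5 kb. The domains had a median width of 9.59 kb in NOD (9.34 to 9.93) and 9.74 kb in B6 (9.31 to 10.2), and the widest reached 55.5 kb in NOD and 34.3 kb in B6. Although they made up 9.21% of the NOD list and 9.03% of the B6 list, they covered 68.8% and 68.6% of the listed length. They carried 36.4% of the summed positive score in NOD and 31.9% in B6.

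**Figure D1:**
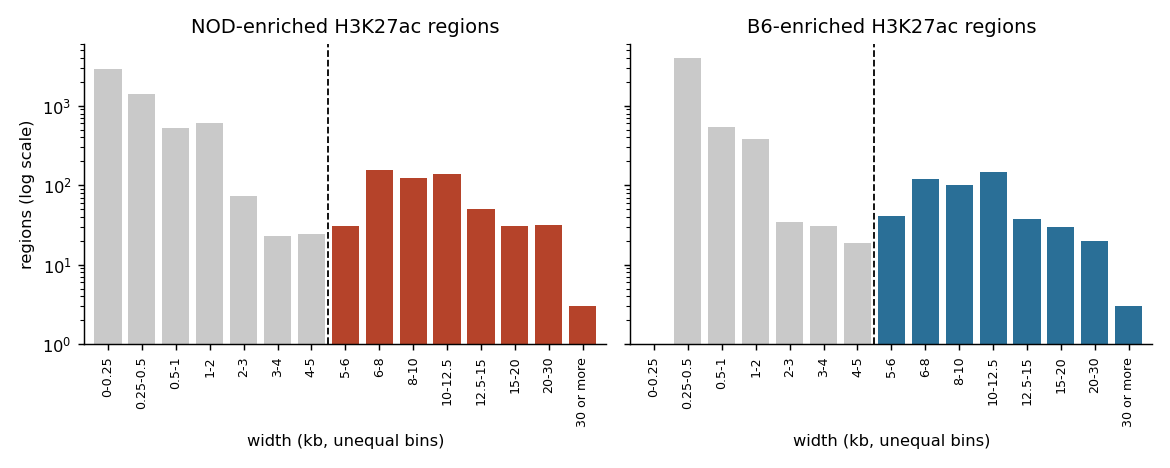
Width of all H3K27ac regions in the NOD-enriched (left) and B6-enriched (right) lists, with the number of regions on a log scale against unequal width bins in kb. Coloured bars are the domains of 5 kb or more and grey bars the narrower regions, and the dashed line marks the limit, which lies beside bins of 24 (NOD) and 19 (B6) regions of 4 to 5 kb.

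Scores on either side of the limit overlapped. Just inside it were the NOD-enriched domains at Ubxn4 (5007 bp, score 39.0), Tbc1d25 (5019 bp, score 63.8) and 1700017B05Rik (5030 bp, score 191.3). Just outside were NOD-enriched regions at 1810010H24Rik (4999 bp, score 33.2), 9430083A17Rik (4972 bp, score 9.23) and Zgpat (4951 bp, score 19.8). In the B6 list, Lima1 (5036 bp, score 7.52), Snx20 (5061 bp, score 24.7) and Plekha5 (5103 bp, score 31.0) were just inside. The B6-enriched regions at Olfr52 (4984 bp, score 88.5), Rbm47 (4979 bp, score 16.5) and Irx6 (4960 bp, score 25.5) were just outside.

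Scores varied far more among domains than widths did. The score is the authors' own-strain H3K27ac signal minus that of the other, and its scale is not given, so scores of the 2 lists are given side by side without a ratio. NOD-enriched domains had a median score of 82.7 (75 to 93.4), with quartiles of 39.9 and 181.6 and a maximum of 1045.4. B6-enriched domains had a median of 65.2 (60.1 to 70.0), with quartiles of 37.5 and 112.0 and a maximum of 603.0. Per kb of width, the median score was 8.40 in NOD (7.95 to 9.28) and 6.996 in B6 (6.55 to 7.60). Regions under 1 kb had 39.2 per kb in NOD and 37.6 per kb in B6, so the domains were wide stretches of lower score per base. Width and score were loosely related within the domains, with a Spearman correlation of 0.37 over 564 NOD-enriched and 0.28 over 499 B6-enriched domains, each set from 1 pair of libraries. The authors' slope value, which ranks regions for the super enhancer call, was 1 or more in 256 NOD-enriched domains (45.4%, 41.2 to 49.6) and in 233 B6-enriched domains (46.7%, 42.2 to 51.2), counting domains with a score above 0. Over all regions of the lists the share was 8.16% in NOD and 7.06% in B6. The slope follows from the score, so this restates the scores and is no separate result.

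**Figure D2:**
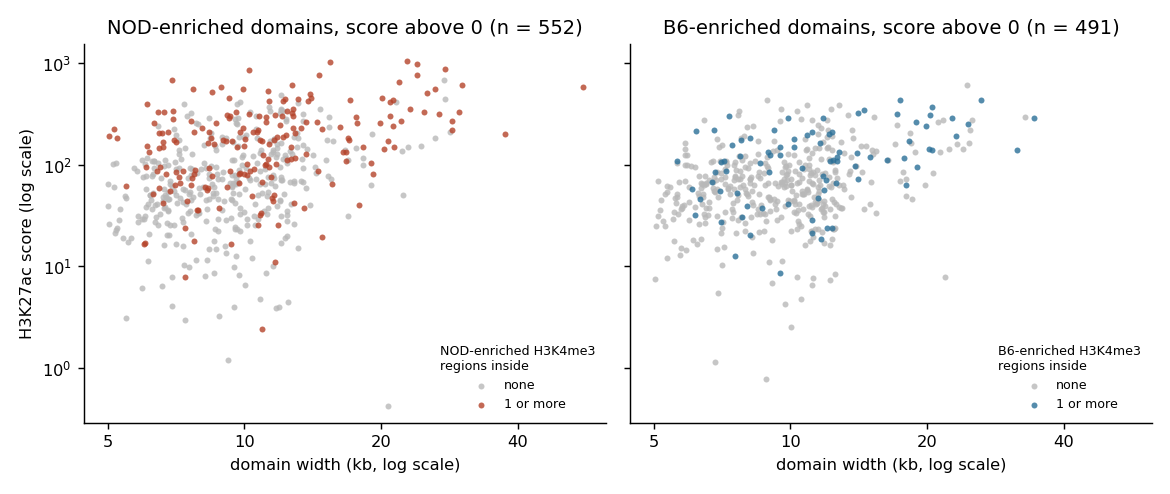
H3K27ac score against width for the 552 NOD-enriched (left) and 491 B6-enriched (right) domains with a score above 0, both on log scales. Each point is 1 domain, coloured where at least 1 H3K4me3 region of the same strain overlapped it and grey otherwise, and the coloured points lie mostly in the upper part of each cloud.

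The NOD-enriched domain with the highest score lay at chr2:177057555-177080385, intergenic and 141 kb from the start of Gm14296, in a region of zinc-finger genes. It spanned 22.8 kb with a score of 1045.4 and held 3 NOD-enriched H3K4me3 regions with 2054 NOD and 269 B6 tags. After it ranked an intergenic domain of 15.4 kb beside Smarca5-ps, a pseudogene of a chromatin remodeller, at chr4:145431706-145447145. It scored 1024.4, and its 4 H3K4me3 regions held 3284 NOD and 116 B6 tags, 18.4-fold more in NOD after scaling to library size (15.3 to 22.3). Thus the pair at the top of the list carried both marks.

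The domain over Crxos, an oocyte and early embryo homeobox gene, covered 23.9 kb at chr7:15881632-15905579 with a score of 986.0 and 517 NOD against 13 B6 H3K4me3 tags. The Slc35g1 domain, on chromosome 19, spanned 27.6 kb and scored 869.9, with 434 NOD and 27 B6 tags. A 24.03 kb domain over the bodies of Rfx8 and D930019O06Rik, listed under Creg2, scored 770.9 with 1232 NOD and 133 B6 tags. NOD-enriched H3K4me3 was much sparser in the domains near Tmem64 (score 762.4, 39 NOD and 0 B6 tags) and inside Pard3, a cell polarity gene (score 653.7, 29 NOD and 0 B6 tags). With 3 tags put in place of 0, the values were 8.45-fold and 6.28-fold higher in NOD, which are not lower bounds. For Pard3 the lower end of the exact interval was 4.79. Near Cdh9, which encodes a cadherin, a domain of only 6.94 kb scored 688.0, with 139 NOD and 14 B6 tags. The Mfap3l domain, 27.5 kb wide with a score of 679.2, held no NOD-enriched H3K4me3 region. High scores were therefore found with abundant, sparse or no strain-enriched H3K4me3.

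In the B6 list, the highest domain lay over the start of Dhrs7, a dehydrogenase gene, at chr12:72663992-72688450. It spanned 24.5 kb with a score of 603.0 and held no B6-enriched H3K4me3 region. Inside Acacb, the gene of an acetyl-CoA carboxylase, an 8.87 kb domain scored 431.9, or 48.7 per kb, again without B6-enriched H3K4me3. The Mfap3 domain (17.5 kb, score 431.9) was the first with such a region, holding 173 B6 tags and 1 NOD tag, a ratio of 266 (47.1 to 10570). The single NOD tag leaves this ratio with a wide interval. Over the start of Scaf4, a regulator of transcript ends, a 26.2 kb domain scored 431.4 with 40 B6 and 8 NOD tags.

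The next B6-enriched domains were at Nlrp4f (score 387.5) and Gm6249 (score 383.9), neither of which held B6-enriched H3K4me3. The 1700057H15Rik domain (score 373.9) held 141 B6 and 2 NOD tags in 3 H3K4me3 regions. Domains inside Ninl, listed under Gins1 (score 356.3), and near Hsd17b3, a gene of testosterone synthesis (score 354.9), held no B6-enriched H3K4me3 region. The Efcab12 domain on chromosome 6 (score 347.8) held 31 B6 and 4 NOD tags. Among the 10 highest domains, 9 of NOD and 4 of B6 held an H3K4me3 region of the same strain, beside 34.8% and 17.0% of all domains. The NOD H3K4me3 library was the deeper one and its list the longer one, so these counts are not on an equal footing.

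The widest domains were not the highest scoring. At 55.5 kb, the NOD-enriched domain over the starts of Bcap29, Cog5 and Dus4l had a score of 581.4, or 10.5 per kb, and held only 32 NOD and 5 B6 tags in 1 NOD-enriched H3K4me3 region. It was followed by domains of 37.5 kb listed under 2410141K09Rik (5.36 per kb) and 30.1 kb listed under Zfp970 (20.1 per kb). A domain of 29.6 kb inside Zfp990, a zinc-finger gene, and listed under LOC101056073, had 11.1 per kb and held 5 H3K4me3 regions. A domain of 28.6 kb covered the start of Rgma, an axon guidance gene, at 9.33 per kb. In B6, the widest lay over Frmd4b (34.3 kb, 8.47 per kb), inside the splicing factor gene Rbfox2 (32.9 kb, 8.93 per kb) and over the start of Prdm1, the gene of the germ cell and plasma cell regulator BLIMP1 (31.6 kb, 4.45 per kb). The Scaf4 domain and a domain of 25.1 kb inside the neurabin gene Ppp1r9a (10.9 per kb) came next.

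By score per kb the order differed again. In NOD the highest values were at Cdh9 (99.2 per kb), G530011O06Rik (82.9), Rims2, a synaptic gene (72.8), Smarca5-ps (66.4) and 3110002H16Rik (66.2), in domains of 6.94 to 15.4 kb. In B6 they were at Acacb (48.7 per kb), Hspb3 (43.6), Mtmr7 (42.6), Olig1 (41.5) and in the von Willebrand factor gene Vwf (40.2). The 5 leading domains of NOD thus all lay above the highest B6 value, on scales that cannot be equated between lists.

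The domains held gene starts more often than narrower regions, while the distance of their centres to gene starts was similar. RefSeq gene starts lay inside 182 NOD-enriched domains (32.3%, 28.4 to 36.3) and 131 B6-enriched domains (26.3%, 22.4 to 30.3), beside 6.24% and 5.0% of all regions in the lists. A wide region covers more starts by its length, so this difference was not separated from width. The authors' annotation refers to the centre of a region. By it, 9 NOD-enriched domains (1.60%) and 6 B6-enriched domains (1.20%) were promoters, against 9.57% and 6.70% of regions under 1 kb. The centres of 293 NOD-enriched domains (52.0%, 47.7 to 56.1) were intergenic and 231 (41.0%, 36.9 to 45.1) intronic. In B6, 193 centres (38.7%, 34.4 to 43.1) were intergenic and 264 (52.9%, 48.4 to 57.4) intronic. Over all regions of the lists, 43.6% of NOD and 39.4% of B6 centres were intergenic, and 41.2% and 48.1% were intronic, so intergenic centres were the larger class in NOD and introns in B6 with or without the width limit.

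The median distance from the domain centre to the nearest listed start was 15.3 kb in NOD and 19.3 kb in B6, against 17.02 and 20.6 kb for regions under 1 kb. It was within 10 kb in 39.5% of NOD-enriched domains and 39.6% of NOD-enriched regions under 1 kb, and in 32.1% and 32.5% in B6. Domains reached over a body of a RefSeq gene in 418 NOD cases (74.1%) and 404 B6 cases (81.0%), beside 63.0% and 66.6% of all regions in the lists. Up to 4 gene starts lay in 1 NOD-enriched domain, at St6galnac6 and St6galnac4, a pair of sialyltransferase genes. Up to 5 lay in 1 B6-enriched domain, at Bcl6b, a transcriptional repressor, with Slc16a13 and 3 microRNA genes.

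Whether the domains also differed between strains in H3K4me3 was examined with the lists of the other mark, which come from separate libraries and were not used to choose the domains. NOD-enriched H3K4me3 overlapped 196 of the 564 NOD-enriched domains (34.8%, 30.8 to 38.8), beside 9.84% of all NOD-enriched H3K27ac regions. B6-enriched H3K4me3 overlapped 85 of the 499 B6-enriched domains (17.0%, 13.8 to 20.6), beside 4.65% of all B6-enriched H3K27ac regions. Marks of opposite direction were less frequent. B6-enriched H3K4me3 was found in 15 NOD-enriched domains (2.66%, 1.496 to 4.35), beside 0.702% of the list. NOD-enriched H3K4me3 was found in 33 B6-enriched domains (6.61%, 4.60 to 9.16), beside 1.92% of the list. As the NOD H3K4me3 library was the deeper one and its list the longer one, with 12077 regions against 7587, shares of NOD and B6 are not on an equal footing.

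Per length, the domains held fewer H3K4me3 regions than narrower H3K27ac regions did. Counting H3K4me3 regions whose centre lay inside, NOD-enriched domains held 42.03 per Mb of covered sequence, against 88.96 per Mb in regions of 1 to 5 kb and 82.4 per Mb in regions under 1 kb. In B6 the densities were 18.1, 40.1 and 39.2 per Mb. All of these exceeded the genome as a whole, with 4.43 NOD-enriched and 2.78 B6-enriched H3K4me3 regions per Mb. Within the NOD-enriched domains, the share with H3K4me3 rose from 26.5% at 5 to 8 kb to 32.6% at 8 to 12 kb and 48.3% above. The density of overlapping H3K4me3 regions did not follow, at 52.4, 41.5 and 50.6 per Mb. In B6 the shares were 12.3%, 13.4% and 30.0%, with 20.3, 15.1 and 23.8 regions per Mb.

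In NOD, both the share and the density were lower at lower H3K27ac scores. When the domains of a list were ordered by score and divided into 4 equal classes, from the highest to the lowest score, H3K4me3 of the same strain was found in 65.96% (57.5 to 73.7), 36.2% (28.3 to 44.7), 22.7% (16.1 to 30.5) and 14.2% (8.88 to 21.1) of NOD-enriched domains. The density fell from 82.1 regions per Mb in the highest class to 15.9 in the lowest. Domains of the highest class were also wider, with a median of 12.01 kb against 8.58 kb in the lowest. In B6 the shares were 34.7% (26.4 to 43.7), 15.2% (9.41 to 22.7), 7.20% (3.34 to 13.2) and 11.2% (6.26 to 18.1). Here the intervals of the 3 lower classes overlap each other, and only the highest class stands apart from the lower ones. The median score was 173.65 in the NOD-enriched domains with NOD-enriched H3K4me3 and 61.55 in those without it. In B6 the medians with and without B6-enriched H3K4me3 were 116.5 and 60.55.

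Repeated sequence was more frequent at high scores as well. Of the 50-base words of the domains, taken every 50 bases, 21.4% of those in the highest NOD class were found again elsewhere in mm10, falling to 14.2%, 8.30% and 6.65% in the lower classes. In B6 the shares were 9.20%, 5.61%, 5.33% and 5.005%. Among NOD-enriched domains with under 10% of repeated words, a limit chosen after seeing the data, the H3K4me3 share was 68.0% (56.2 to 78.3) in 75 domains of the highest class and 14.5% (8.84 to 22.0) in 124 domains of the lowest. In B6 it was 27.7% (19.3 to 37.5) of 101 and 9.73% (4.96 to 16.8) of 113. The fall with score was thus as large in NOD without the repeat-rich domains and smaller in B6.

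**Figure D3:**
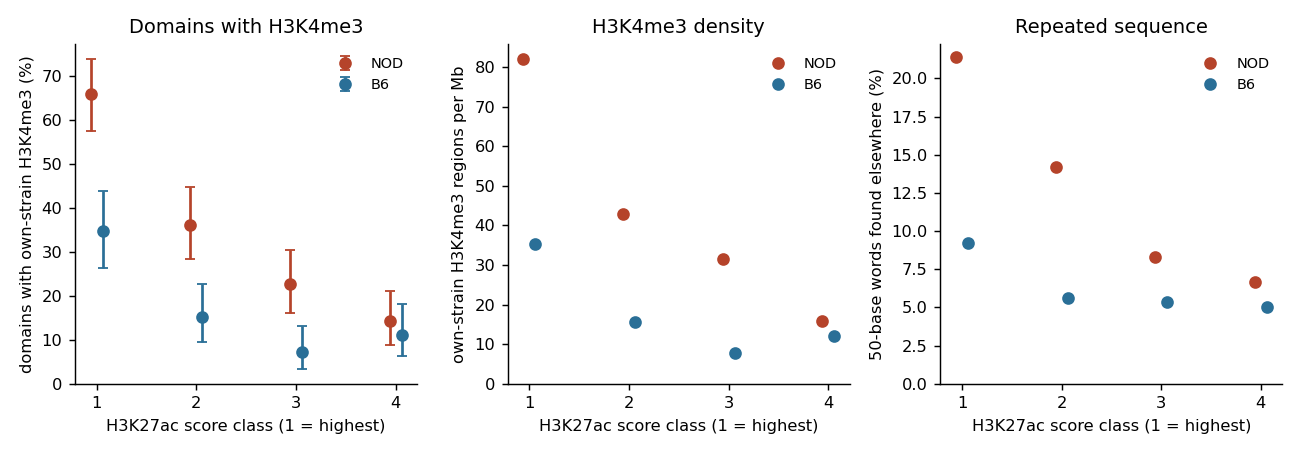
The 4 classes of domains by H3K27ac score, from 1 (highest) to 4 (lowest), in NOD (141 domains each) and B6 (124 or 125 each). The panels show the percent of domains with H3K4me3 of the same strain with 95% exact binomial intervals, the number of such regions per Mb, and the percent of 50-base words found elsewhere in mm10. The first panel falls from 65.96% to 14.2% in NOD and from 34.7% to 11.2% in B6.

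H3K4me3 regions inside the domains were seldom at annotated gene starts, though more often than those of the whole lists. The domains overlapped 286 distinct NOD-enriched regions, which is 2.37% of that list, and 101 B6-enriched regions, which is 1.33%. A RefSeq gene start lay in 21 of the 286 (7.34%, 4.60 to 11.01), beside 4.42% of all NOD-enriched H3K4me3 regions. In B6 it lay in 17 of 101 (16.8%, 10.1 to 25.6), beside 5.07% of the list. Nonetheless, domains that covered a gene start held H3K4me3 more often. The shares were 45.6% (38.2 to 53.1) with a start and 29.6% (25.0 to 34.4) without in NOD, and 30.5% (22.8 to 39.2) with and 12.2% (9.06 to 16.02) without in B6. Domains covering a start were also wider, with medians of 10.8 and 9.13 kb in NOD and 11.2 and 9.22 kb in B6. The centres of the H3K4me3 regions fell in the middle part of a domain, from 25% to 75% of its length, in 30.4% of NOD cases (25.1 to 36.1) and 29.7% of B6 cases (21.02 to 39.6). Most centres thus lay outside the middle part, and 33 NOD and 7 B6 centres lay past the border, as an overlap of 1 bp was enough to be counted. A stitched domain begins and ends at an acetylated element and spans the gaps between. How far this sets the position of H3K4me3 was not tested.

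The H3K4me3 regions in domains were larger than others of their list. They held a median of 47 NOD tags against 30 over the whole NOD list, and 29 B6 tags against 20 over the B6 list. Median widths were 645 bp in NOD and 635 bp in B6, and 500 bp over either list. In 71 of the 286 NOD and 23 of the 101 B6 regions no tag of the other strain was found. The share of such regions over the whole lists was not computed, so these counts cannot be set against it. Together the 286 regions held 41628 NOD and 2799 B6 tags, 9.67-fold more in NOD after scaling (9.31 to 10.1). The 101 B6 regions held 5772 B6 and 795 NOD tags, 11.2-fold more in B6 (10.4 to 12.04). These ratios compare 2 libraries, and the regions are in the authors' lists because the peak caller set them above the other strain. Most domains with H3K4me3 held 1 region, namely 139 in NOD and 73 in B6, while 20 NOD and 3 B6 domains held 3 or more.

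The tags were spread unevenly over the domains. In NOD the most were held by the Smarca5-ps domain described above, its neighbour at chr4:145410339-145418840 and the Gm14296 domain. The neighbouring domain, 8.50 kb wide with a score of 525.6, held 2113 NOD and 53 B6 tags, a ratio of 25.9 (19.7 to 34.7). The ratio at Gm14296 was lower, at 4.96 (4.37 to 5.66). The domain near Stac2 had 1561 NOD and 117 B6 tags in 1 region of 3550 bp (8.67-fold, 7.19 to 10.6), with a score of only 174.7. The domain inside Ipp, a gene of an actin-binding kelch protein, had 1450 NOD and 13 B6 tags (72.5-fold, 42.3 to 137), with a score of 187.8. Its H3K4me3 region of 5551 bp reached past the end of the domain.

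In B6 the tag numbers were lower. The Klhdc4 domain, with 77.2% of its words repeated elsewhere, held 339 B6 and 17 NOD tags (30.7-fold, 18.9 to 53.3). The domain inside Sult6b1, a sulfotransferase gene, held 298 and 57 (8.04-fold, 6.04 to 10.9), and the domain at 5730507C01Rik held 294 and 46 (9.83-fold, 7.19 to 13.7). The domain listed under 1700030C10Rik, 856 kb from that gene's start, held 288 and 10 tags (44.3-fold, 23.7 to 93.4). At BC052688 there were 205 and 5 tags (63.1-fold, 26.6 to 196). Of these, the Sult6b1 domain was the only one with under 10% of repeated words, at 2.69%.

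**Figure D4:**
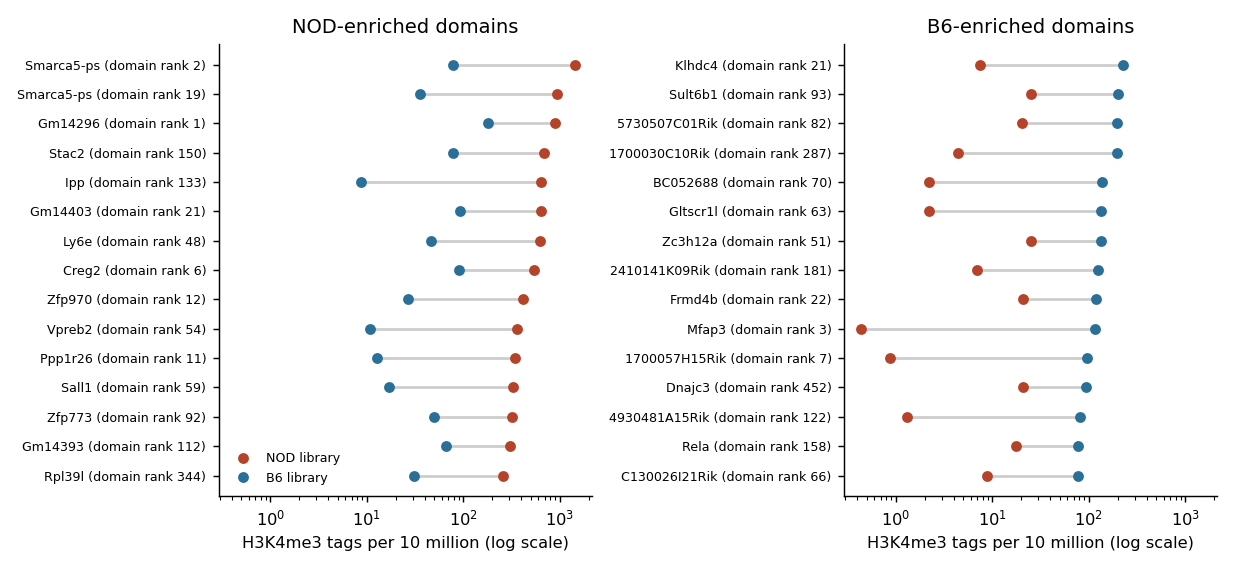
H3K4me3 tags scaled to a library of 10000000 tags, on a log scale, in the 15 NOD-enriched (left) and 15 B6-enriched (right) domains with the most tags of their own strain. Points are the NOD and B6 libraries summed over the H3K4me3 regions of a domain, joined by a line, and the name gives the nearest gene with the rank of the domain by H3K27ac score. The own strain is higher in every row because the regions were listed for exceeding the other strain, so this direction is no result. Values run from 1443 against 78.4 at Smarca5-ps to 77.1 against 8.79 at C130026I21Rik.

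To relate the domains to the biology of ES cells, 9 gene lists were used, and a gene was counted where it was the nearest gene named by the authors or its RefSeq body overlapped the domain. Of all 21774 protein-coding RefSeq genes, 2.67% were at a NOD-enriched and 2.44% at a B6-enriched domain, and 21.3% and 19.7% at a region of any width. Of 29 genes of core and naive pluripotency, 3 were at NOD-enriched domains and 1 at a B6-enriched domain, while 12 were at a region of any width in each list. The NOD-enriched domain 18.9 kb upstream of Zfp42, the gene of the naive marker REX1, scored 417.8 (chr8:43321005-43330766). A domain over the start of Dppa3, a maternal factor that protects DNA methylation after fertilization, scored only 44.8. The Fbxo15 domain, near a gene known as an ES cell marker, scored 52.8. The B6-enriched domain nearest to Klf2, a naive pluripotency factor, was 21.9 kb wide but scored 7.83, among the lowest of all domains. Its centre lay 45.5 kb from the gene's start. None of these 4 domains held an H3K4me3 region enriched in its own strain, and the Dppa3 domain held a B6-enriched H3K4me3 region with 16 B6 and 0 NOD tags.

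Of 18 genes of the 2-cell-like state that RefSeq names, 3 were at NOD-enriched domains, 7 at a NOD-enriched region of any width and none at a B6-enriched region of any width. These were Smarca5-ps and Crxos, described above, and Zscan4d, a gene transiently expressed in early embryos and in rare ES cells, with a score of 92.2. In the Zscan4d domain, 57.6% of words were found elsewhere in mm10, and Zscan4 genes are near-identical copies, so that reads there may belong to another copy.

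Imprinted genes contributed 3 of 29 to the NOD-enriched domains and 1 to the B6-enriched domains, and 13 and 3 were at a region of any width. Over the start of Meg3, a maternally expressed non-coding RNA, a domain of 23.1 kb scored 354.9 and held 5 NOD-enriched H3K4me3 regions with 508 NOD and 37 B6 tags (8.93-fold, 6.39 to 12.8). A domain in Gnas, the gene of the stimulatory G protein, scored 93.0 and a domain near Sfmbt2, a paternally expressed polycomb gene, scored 44.3, the latter with 165 NOD and 15 B6 tags. The B6-enriched domain inside Usp29, which is expressed from the paternal allele, scored 243.8 without B6-enriched H3K4me3.

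Of 26 genes of LIF, FGF, BMP and Nodal signalling, none was at a NOD-enriched domain, while 12 were at a NOD-enriched and 16 at a B6-enriched region of any width. At a B6-enriched domain was 1 of them, Smad7, an inhibitor of TGF-beta signals, with a score of 61.1. Of 19 Wnt genes, 2 were at B6-enriched domains and none at a NOD-enriched one, and 7 were at a NOD-enriched and 5 at a B6-enriched region of any width. Over the start of the receptor gene Fzd7 the score was 111.8, with 23 B6 and 8 NOD tags (4.42-fold, 1.91 to 11.4). In Tcf7l1, a repressor of Wnt targets, it was 12.6, with 30 B6 and 2 NOD tags (23.1-fold, 5.85 to 199.2). Of 19 genes of lineage commitment, 8 were at a NOD-enriched and 3 at a B6-enriched region of any width. Tfap2c, a trophoblast and germ cell factor, was the nearest gene of a B6-enriched domain with a score of 94.2. The centre of that domain lay 65.8 kb from the gene's start. None of 11 genes of DNA methylation was at a domain of either strain, although 3 were at a NOD-enriched and 5 at a B6-enriched region of some width. Such small counts allow no comparison between lists.

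For innate immunity and antigen presentation, 2 of 34 genes were at NOD-enriched domains and none at B6-enriched ones, and 6 and 1 were at a region of any width. The Tlr4 domain, near the gene of the receptor for lipopolysaccharide, scored 450.8, with 68 NOD and 0 B6 tags. With 3 tags put in place of 0, the ratio was 14.7, and the lower end of its exact interval was 11.7. The centre of this domain lay 74.3 kb from the gene's start. Of its words, 38.2% were found elsewhere in mm10, so that reads there may belong to another place. The Ly6e domain, over the start of a cell surface gene induced by interferon, scored 336.4 with 1430 NOD and 68 B6 tags (13.7-fold, 10.7 to 17.7). Of 19 genes in the diabetes list used here, 3 were at NOD-enriched domains and none at a B6-enriched domain, and 7 and 4 were at a region of any width. The study named Pcmtd1, Fcgr3 and Igfbp2 from super enhancers of its NOD H3K27ac data, so the place of such genes in the NOD list is no separate result. Pcmtd1 had 3 domains with scores of 161.2, 103.1 and 101.4, all upstream of the gene and without NOD-enriched H3K4me3. A domain inside Igfbp2, a gene of a carrier of insulin-like growth factors, scored 7.84. Its slope value was 0.063, below the limit of 1 for a super enhancer. Whether the study's Igfbp2 super enhancer is another region was not examined. Creg2, which the text of the study does not name, was counted only as the nearest listed gene of the domain given above. That domain lies over the bodies of other genes. The count of 3 diabetes genes is therefore no separate result. At 7.84, the score of the Igfbp2 domain was below those of most regions under 1 kb, whose median was 10.8.

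The labelled cell type was compared with cell type markers near the domains. Of 10 ES cell markers, Zfp42 and Dppa3 were at NOD-enriched domains and none at B6-enriched domains. Lists of strain differences leave out genes marked alike in both strains, so absence is no sign against the label. Of 4 markers of fibroblast feeders, Col1a1 was nearest to a B6-enriched domain of score 41.9, 29.4 kb from its start. H3K4me3 enriched in NOD lay within 5 kb of the starts of the ES cell markers Pou5f1, Sox2 and Zfp42 and of the primitive endoderm markers Gata4 and Gata6. At the Pou5f1 promoter itself, the study reports like levels of both marks in NOD and B6. H3K4me3 enriched in B6 lay within 5 kb of the starts of the ES cell markers Dppa3 and Tdgf1, of Gata4, and of the fibroblast markers Col1a1 and Vim. The share of all genes with such H3K4me3 within 5 kb was not computed, so these markers cannot be set against it. No fibroblast marker was at a NOD-enriched domain, no primitive endoderm or blood marker at any domain, and of 4 trophoblast markers only Tfap2c was at one. In describing its RNA-Seq, the study states that all ES cells were grown without feeders. Whether feeder cells had a part in any domain was not tested.

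NOD-enriched domains were found on all chromosomes and B6-enriched domains on all but Y. On the 17 autosomes other than 6 and 8, NOD-enriched domains made up between 37.5% and 68.1% of all domains of a chromosome. Over all chromosomes together they made up 53.1%. On chromosome 6 they were 20 of 81 (24.7%, 15.8 to 35.5), and on chromosome 8 they were 47 of 65 (72.3%, 59.8 to 82.7). The sex of the cells used for ChIP-Seq is not given in the sources used here. The X chromosome had 21 NOD-enriched and 5 B6-enriched domains (80.8% NOD, 60.6 to 93.4). On Y there were 3 NOD-enriched domains and none of B6, with between 41.3% and 56.0% of their words found elsewhere in mm10. Per 10 Mb, the 17 autosomes had from 0.88 to 3.19 NOD-enriched and from 0.94 to 3.604 B6-enriched domains, and chromosome X had 1.23 and 0.29. Narrower regions were not counted by chromosome here, so whether any of these shares is particular to the domains was not tested.

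**Figure D5:**
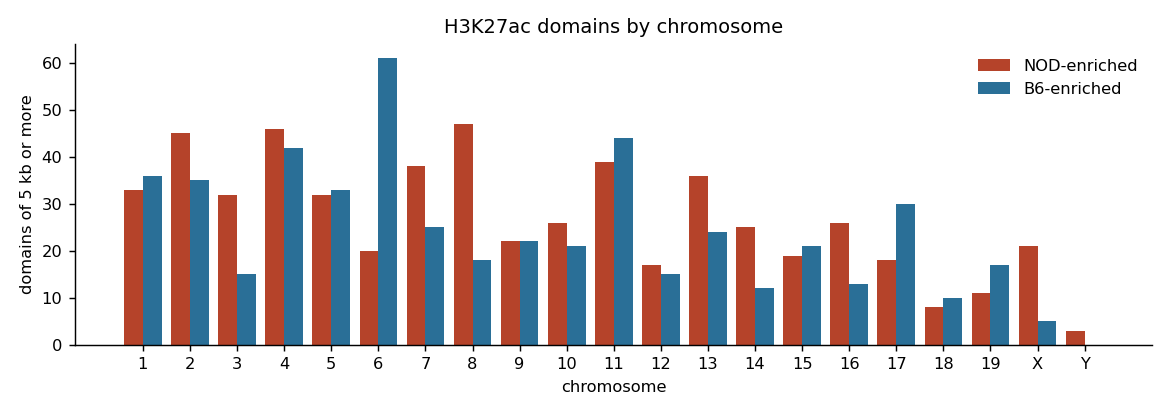
Number of NOD-enriched and B6-enriched H3K27ac domains of 5 kb or more on each chromosome, as paired bars from 0. Chromosome 6 had 20 NOD-enriched and 61 B6-enriched domains, chromosome 8 had 47 and 18, and chromosome X had 21 and 5.

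Some domains lay in groups. Where at least 3 domains of 1 list followed each other with gaps of no more than 100 kb, 7 groups were found in NOD and 3 in B6. The longest, on chromosome 2 between 177188681 and 177583655, had 5 NOD-enriched domains listed under Zfp970 and Gm14403, with 16 H3K4me3 regions and 81.0% of words repeated. Next to Smarca5-ps, 4 domains within 165 kb reached a summed score of 1927.2 with 13 H3K4me3 regions, at 33.4% of repeated words. Groups of 3 were at Aurkc and Zfp773 on chromosome 7 (summed score 1032.2), at Hepacam, Robo4 and Msantd2 on chromosome 9 (621.9), at Zfp935 on chromosome 13 (494.4) and at Pcmtd1 on chromosome 1 (365.7). Several of these are places of zinc-finger genes, which form families of similar copies.

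In B6 the longest group comprised 5 domains over 303 kb at Magi1, the gene of a scaffold protein of cell junctions, with a summed score of 672.1 and 1 H3K4me3 region. Tnip1, Anxa6 and Slc36a3 on chromosome 11 had 3 domains (364.3). Repeated words made up 1.88% of the Magi1 group and 1.70% of the group at Tnip1, and between 5.0% and 81.0% of the NOD groups named here.

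Some domains of one list overlapped a region listed for the other strain. Of the NOD-enriched domains, 26 (4.61%, 3.03 to 6.68) overlapped a B6-enriched H3K27ac region, beside 0.996% of all NOD-enriched regions. Of the B6-enriched domains, 20 (4.01%, 2.47 to 6.12) overlapped a NOD-enriched region, beside 1.1% of the list. Wide regions have more length to overlap, and this was not separated from width. In 4 places a domain met a domain. At Hist1h1t, a histone gene, the NOD list gave a score of 41.8 and the B6 list 8.28 over almost the same stretch. At Eefsec and Ruvbl1 the B6 domain scored 49.6 and the NOD domain -14.29. Near Sall2 and Mettl3 the NOD domain scored 15.2 and the B6 domain 32, with 839 bp in common.

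The last of these places was the NOD-enriched domain of score 847.0 near the end of chromosome X, at chrX:169994494-170004708. The B6 list holds the stretch from 169994074 to 170005032 with a score of -819.014. Both entries thus gave a higher H3K27ac signal in NOD. In the NOD domain, 94.1% of the words were found elsewhere in mm10, and it held 131 NOD and 17 B6 tags in its NOD-enriched H3K4me3 region and also 1 B6-enriched H3K4me3 region.

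Scores below 0, where the other strain had the higher signal, were found in 12 NOD-enriched and 8 B6-enriched domains. Apart from that on chromosome X, they lay between -41.263, at Nop2, a nucleolar gene, and -0.899, at Snord98, in NOD, and between -26.637, at Csrp1, and -2.007, at Tcea1, in B6. Gene starts lay in 5 of the 12 and 2 of the 8, and an H3K27ac region of the other list overlapped 4 and 2 of them. They were kept in all counts unless stated.

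In sequence, the domains were richer in G and C than the genome. GC content was 44.1% in NOD-enriched and 45.8% in B6-enriched domains, against 41.7% over mm10. Regions under 1 kb had more, at 48.1% and 47.7%. The observed over expected CpG ratio was 0.24 in both sets of domains, against 0.19 in the genome. Soft-masked repeats made up 35.2% of NOD-enriched and 28.4% of B6-enriched domains, with 36.4% over the genome. Repeated 50-base words made up 13.7% and 6.57%, the NOD-enriched domains holding the larger share. At the domain centre, the authors' annotation named an endogenous retrovirus of the ERVK or ERV1 family in 77 NOD-enriched (13.7%, 10.9 to 16.8) and 36 B6-enriched domains (7.21%, 5.10 to 9.85), beside 14.8% and 9.56% of all regions in the lists. With such a centre, 46.8% of the NOD-enriched domains (35.3 to 58.5) and 22.2% of the B6-enriched domains (10.1 to 39.2) held H3K4me3 of the same strain, against 33.4% (28.1 to 39.1) and 18.6% (14.4 to 23.4) without any repeat there. These intervals overlap.

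The motifs of pluripotency factors were not alike in density. The ESRRB motif occurred 0.31 times per 10 kb in NOD-enriched and 0.36 times in B6-enriched domains, against 0.22 in the genome. The KLF motif occurred 2.21 and 2.69 times, against 1.72. In contrast, the OCT4 motif occurred 0.71 and 0.59 times per 10 kb, against 0.91 in the genome, and the SOX2 motif 1.93 and 1.63 times, against 2.10. Narrower regions of the same lists held more of the ESRRB motif, at 0.39 in NOD and 0.47 in B6 under 1 kb. The KLF motif was also denser there, at 2.46 and 3.55. Regions of 1 to 5 kb had ESRRB densities of 0.39 and 0.66 and KLF densities of 2.47 and 3.44. The OCT4 motif occurred 0.59 and 0.87 times under 1 kb, and 1.08 and 0.81 times at 1 to 5 kb. The SOX2 motif occurred 1.53 and 1.65 times, and 1.96 and 1.64 times. The KLF motif is rich in G and C and the OCT4 and SOX2 motifs are rich in A and T, and the domains held more G and C than the genome, so for these motifs density and base content cannot be told apart. By length, 26.8% of NOD-enriched and 27.5% of B6-enriched domains held the ESRRB motif at least once, and 49.1% and 42.5% held the OCT4 motif.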

How the data were processed

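ChIP-Seq of H3K4me3 and H3K27ac in NOD and B6 ES cells gave 1 library per strain and mark. The study's methods name mm10 for mapping and HOMER v4.8 for calling regions. The submitters' processing notes name mm9 instead, but no region passes an mm10 chromosome end and 67.5% (NOD) and 65.2% (B6) of the distances to gene starts in the files lie within 100 bp of those in GRCm38, so mm10 was used. For H3K27ac, the score deposited by the authors is the signal of the own strain less that of the other, and the next column is a slope value, or the region size in the highest rows. For H3K4me3, the authors deposited a count of tags per region, a signal scaled by library size, and a ratio of both strains. Scaled NOD values gave whole tags within 0.1 tag in 100.0% of regions with a value, and the small value written for an empty region was taken as 0.

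Domains were selected on a width of at least 5 kb, and overlaps of at least 1 bp were counted. Gene starts and sequence were from GRCm38.p6 RefSeq. Shares have Clopper-Pearson, medians order-statistic and tag ratios exact conditional intervals. With 1 library per group no test was made. Functions were tested on simulated data. Named domains were the 10 highest by score, the 5 widest, the 5 highest by score per kb, the 3 on either side of the width limit, the 5 with most H3K4me3 tags and those at genes of the 9 lists; sequences from chromosome 18 were not printed. One group of neighbouring domains in each list is not reported here. Members, lists and alternatives were chosen with earlier results of these data known. Python 3.11.15, numpy 2.4.6, pandas 2.3.3, scipy 1.17.1, pysam 0.24.0 and matplotlib 3.10.9 were used.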

Additional observations from a re-analysis of the deposited data

How the results depend on the processing

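With a limit of 10 kb, 254 domains remained in NOD and 237 in B6. Of these, 44.1% and 21.5% held H3K4me3 of the same strain, 41.3% and 35.0% covered a gene start, and 62.2% and 53.2% had a slope value of 1 or more, and the median score per kb in B6 was 6.25. With scores of 20 or more, the medians were 9.61 per kb in NOD and 7.64 in B6, and 50.0% of the NOD-enriched domains had a slope value of 1 or more. With under 10% repeated words, chosen after seeing the data, NOD had a median of 7.16 per kb, an H3K4me3 share of 30.2% and a slope share of 36.3%. The H3K4me3 share was 25.9% in NOD and 11.8% in B6 where the whole H3K4me3 region had to lie inside the domain, 22.9% and 11.8% with 8-fold regions only, and 16.3% and 6.21% with regions of 50 or more scaled tags. Protein-coding genes alone had starts in 20.4% and 15.03% of domains. The other 47 of 70 recalculated values stayed within the interval of the value reported, or within 1.5 times for a count. No paired analysis was possible because each strain and mark has 1 library and no value comes from a test. With 1 library per group, no strain difference has a replicate check, and for H3K27ac the depth is unknown.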
